A study of Homo sapiens with 12 samples.

Results

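The oxygen-sensing pathway was followed on the arrays through 10 genes, taken in 3 groups by role. EPAS1 and ARNT encode subunits of the hypoxia-inducible factors (HIFs), EGLN1, EGLN2, EGLN3, VHL and HIF1AN encode the sensors and the adaptor that restrain them, and CA9, ADM and NDRG1 are genes widely used as markers of hypoxia. Every gene probe whose RefSeq accession was assigned to one of these symbols by the human RefSeq gene table was used. This gave 14 of the 41000 gene probes of the array, for 10 of the 16557 genes that could be named.

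The samples were 12 one-colour arrays (cyanine 3) of H358, a human lung adenocarcinoma cell line, hybridised to the 44 k Whole Human Genome design of Agilent. All 12 came from the same engineered clone, H358/Tet-On/SRSF2, in which a Tet-responsive promoter drives the splicing factor SRSF2. They comprised 6 arrays labelled control (treatment given as none, 24 hours) and 6 labelled SRSF2 over-expression (24 hours, induced with 1 µg/mL doxycycline). Doxycycline came with the induction, so the drug and the transgene cannot be told apart. All values belong to this 1 clone, with no low-oxygen arm analysed here, and the study's methods do not state the oxygen level of the cultures.

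In cells with enough oxygen, the prolyl hydroxylases encoded by the EGLN genes mark the alpha subunits of HIF, the VHL protein recognises the mark, and the subunit is destroyed. When oxygen falls, the alpha subunit, such as HIF-1 alpha or the EPAS1 product HIF-2 alpha, escapes, pairs with ARNT and switches on target genes for glucose use, blood vessel growth and pH control. EGLN1 and EGLN3 are themselves HIF target genes, as are CA9, ADM and NDRG1, and NDRG1 also responds to other stresses and to iron shortage.

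The probe of SRSF2 itself, A_23_P77776, went against the labels. Its signal, in log2 units against the 75th percentile of each array (the scale of every level below), lay between 3.74 and 4.03 (median 3.96) on the control arrays and between 2.29 and 2.56 (median 2.51) on the other 6, a difference of -1.46 (SE 0.063, limma adjusted p = 1.68e-09). Whether this probe lies in the part of the transcript that the transgene carries is not given in the sources used here. The second condition is therefore called the SRSF2-labelled arrays throughout, and every direction below rests on that label. The 12 arrays otherwise lay close together: 54.2% to 68.03% of the gene spots were well above background, and the correlation between any pair was 0.960 to 0.999. Control array 2 had the lowest 75th percentile of processed signal, 893 where the median of the 12 arrays was 1185. SRSF2-labelled array 1 had the most outlier spots, 418 where the median was 139. The arrays lay on 3 slides, each with 2 arrays of either condition, and the study's methods give 2 arrays to each of 3 labelling reactions per condition. The 6 arrays of a condition are therefore at least in part technical repeats, and p-values measure only the spread between arrays. Whether the 3 labelling reactions came from separate cultures is not stated in the study's methods. Which arrays share a reaction is not known, so averages by slide below need not be averages by labelling. The epithelial markers were present: all 9 probes for EPCAM, CDH1 and keratins were tested, 6 of them well above background on all 12 arrays. The rest, KRT8 A_23_P14072 and KRT18 A_24_P42136 and A_32_P151544, lacked a value on SRSF2-labelled array 1. KRT7 fell by 1.32 (SE 0.057, limma adjusted p = 1.66e-09) and KRT19 by 0.50 (SE 0.065, adjusted p = 2.52e-05). EPCAM rose by 0.21 (SE 0.050, adjusted p = 0.00336) and KRT8 A_23_P14072 by 0.18 (SE 0.060, adjusted p = 0.0217), and the other 5 did not pass. Of the 10 lung epithelial probes, 5 were well above background on all arrays (among them both NKX2-1 probes), whereas 2 of the 3 SFTPA1 probes were on none. Both NKX2-1 probes rose, by 0.42 (adjusted p = 0.00283) and 0.34 (0.00489), as did NAPSA A_23_P90130, by 0.63 (0.00125). The other 4 that were tested did not pass. Of the 11 probes for markers of other cell types, 4 were well above background on no array (PTPRC of leukocytes and the 3 of COL3A1, of fibroblasts) and 2, for CD68 and PECAM1, on all 12. Of the 5 that were tested, ACTA2 (0.83, SE 0.082, adjusted p = 2.44e-06) and VWF A_23_P105562 (0.31, SE 0.072, adjusted p = 0.00255) rose, PECAM1 fell by 0.46 (SE 0.073, adjusted p = 0.000134), and CD68 (0.052) and CD3E A_24_P86968 (-0.025) did not pass. ACTA2 was well above background on 3 of 6 control and 6 of 6 SRSF2-labelled arrays. It thus entered the test only through the condition where it was higher, which limits its p-value. The part of these markers in the results below was not tested.

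Of the 14 probes, 13 passed the filter on dim probes and 1, for CA9, did not. At an adjusted p of at most 0.05 (limma, Benjamini-Hochberg over 24330 probes), 6 probes rose and 5 fell, 11 of 13 in all, where 57.7% of all probes tested were called, 29.7% up and 28.0% down. With a fold change of at least 2 as well, 0 probes rose (the largest rise was 0.80, on the log2 scale) and 2 fell, both of NDRG1, where 3.68% of all probes rose and 3.31% fell to that extent. The dimmer NDRG1 probe, A_24_P38387, was well above background on 6 control but 3 SRSF2-labelled arrays. It passed the filter only through the condition where it was higher, so its fall is limited by that choice. Under spike-in scaling, which moved the median of all probes by 0.20, 4 of the 13 rose and 2 fell, and 26.7% of all probes tested were called. For 5 of the 13, all 6 arrays of one condition lay above all 6 of the other, which held for 40.2% of all probes tested. The median difference of the 13 probes was 0.20 on the log2 scale, and that of all probes 0.011. In bulk RNA of this kind, less RNA per cell and fewer cells that carry it cannot be told apart.

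**Figure D1:**
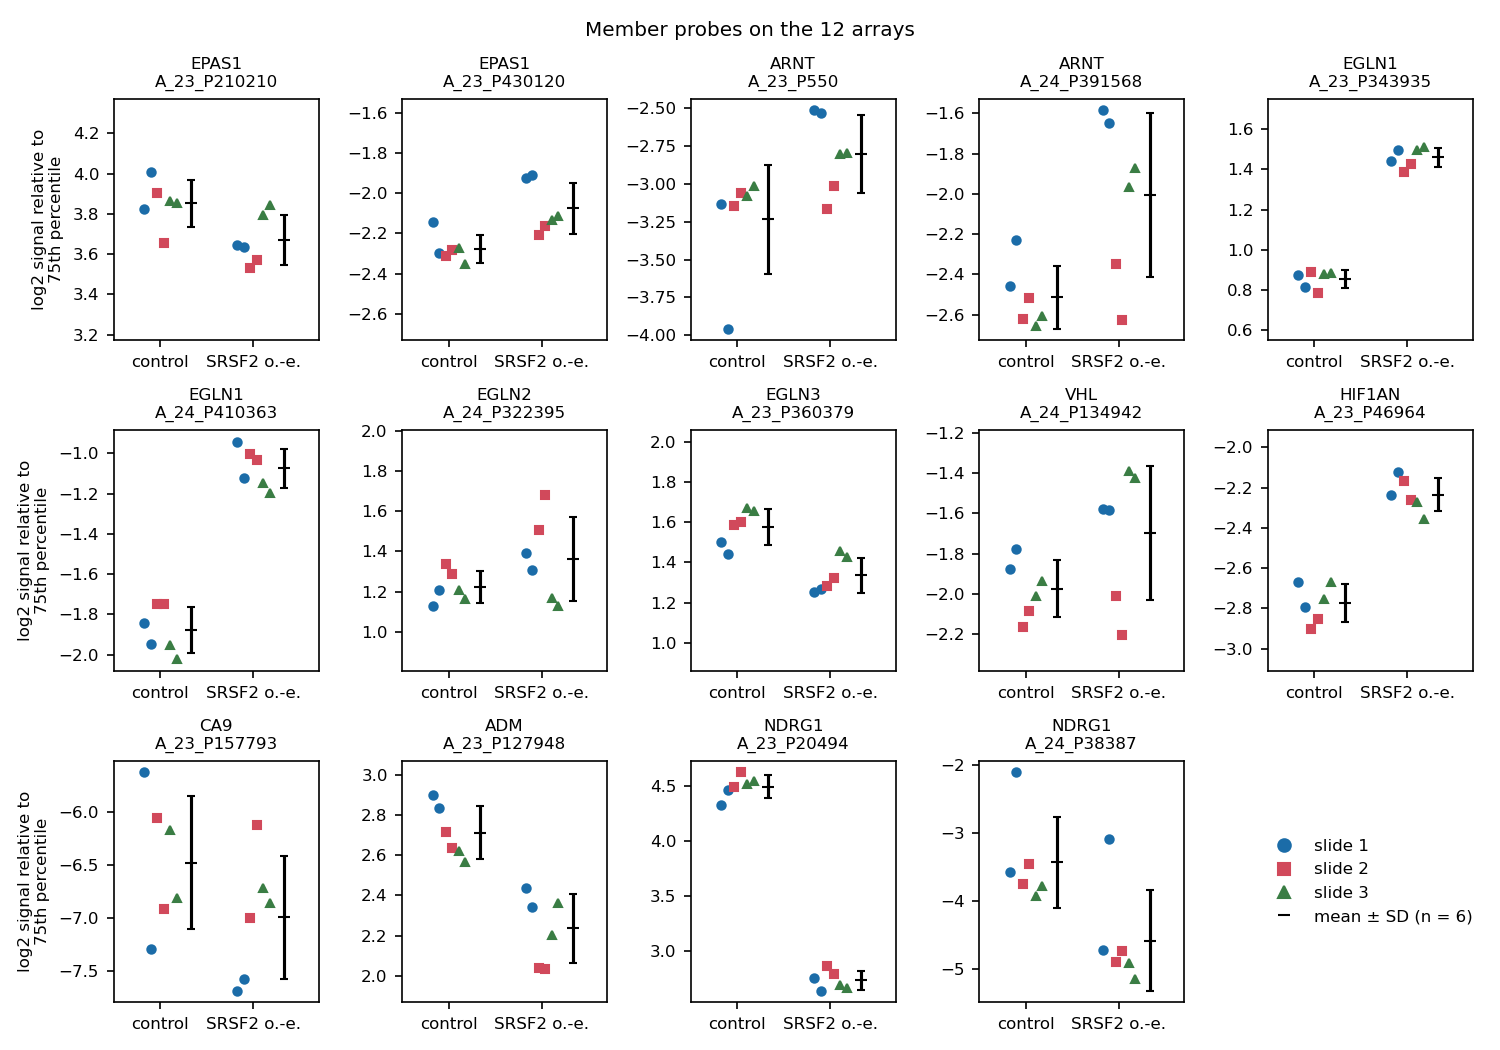
Log2 signal against the array's 75th percentile (vertical axis, each panel on its own range) for the 14 probes of the 10 genes, on the 6 control and the 6 SRSF2-labelled arrays. Each point is 1 array, its shape and colour the slide, and the bar is the mean ± SD (n = 6); EGLN1, HIF1AN, ADM and NDRG1 A_23_P20494 show no overlap between conditions, and CA9 was well above background on no array.

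NDRG1, a stress-responsive gene of the NDRG family, showed the largest change of the 10 genes. Probe A_23_P20494 read 4.32, 4.46, 4.49, 4.63, 4.52 and 4.55 on control arrays 1 to 6, and 2.76, 2.63, 2.86, 2.79, 2.69 and 2.66 on SRSF2-labelled arrays 1 to 6. Every SRSF2-labelled array lay more than 1 log2 unit below every control array. The difference was -1.76 (SE 0.060, adjusted p = 2.92e-10), a 3.40-fold fall with a 95% interval of 3.1 to 3.72. It was -1.70, -1.73 and -1.86 within slides 1, 2 and 3, and between -1.80 and -1.56 under the 24 other settings tried, all of them called.

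The other NDRG1 probe, A_24_P38387, was dim and fell as well. It read -3.58, -2.10, -3.75, -3.45, -3.93 and -3.78 on control arrays 1 to 6 and -4.73, -3.09, -4.89, -4.73, -4.92 and -5.14 on SRSF2-labelled arrays 1 to 6, and only 3 of the 6 SRSF2-labelled arrays were well above background. Array 2 stood far above the others in both conditions, so the groups overlapped although each numbered pair fell. The difference was -1.15 (SE 0.37, adjusted p = 0.0172), with within-slide values of -1.07, -1.21 and -1.18. Without control array 2 alone it was -0.89, so that only A_23_P20494 then fell by at least 2-fold. With the slide as a block the adjusted p was 0.00437. With the replicate number as a block it was 3.93e-06, but array 2 was the far array in both conditions. A pairing by number beyond the slide was not shown (see the processing below). The call was lost without slide 2 (-1.13, adjusted p = 0.101) or slide 3 (-1.14, 0.0938). It was also lost after normexp background correction (-0.63, 0.495), a fit that called 11.6% of all probes tested.

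ADM, which encodes the vasodilator peptide adrenomedullin, also fell. Its probe A_23_P127948 read 2.90, 2.83, 2.72, 2.64, 2.62 and 2.57 on control arrays 1 to 6, and 2.44, 2.34, 2.04, 2.04, 2.20 and 2.36 on SRSF2-labelled arrays 1 to 6. The highest SRSF2-labelled array remained below the lowest control array. The difference was -0.48 (SE 0.086, adjusted p = 0.000416), a 1.39-fold fall, and -0.48, -0.64 and -0.31 within the 3 slides. The call was lost after normexp background correction (-0.33, adjusted p = 0.381), a fit that called 11.6% of all probes tested. It was also lost when arrays were scaled on spike-in controls (-0.27, 0.366), where 26.7% were called. Without background subtraction the difference was -0.48 (adjusted p = 0.000354).

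CA9, the cell-surface carbonic anhydrase IX and a marker strongly induced by HIF, was not measurable. Its single probe A_23_P157793 was well above background on 0 of the 12 arrays, with values between -7.29 and -5.62 on control arrays and between -7.69 and -6.12 on SRSF2-labelled arrays. No fold change is given for it.

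EGLN1, the main prolyl hydroxylase that acts on HIF alpha subunits, rose on both of its probes. Probe A_23_P343935 read 0.88, 0.81, 0.89, 0.79, 0.88 and 0.88 on control arrays 1 to 6 and 1.44, 1.49, 1.39, 1.42, 1.49 and 1.51 on SRSF2-labelled arrays 1 to 6. The arrays of each condition were tightly grouped and did not overlap. The difference was 0.60 (SE 0.042, adjusted p = 1.03e-07), a 1.52-fold rise, with 0.62, 0.57 and 0.62 within the 3 slides, and it was called under all 24 other settings (0.58 to 0.81). Probe A_24_P410363 read -1.85, -1.95, -1.75, -1.75, -1.95 and -2.02 on control arrays and -0.95, -1.12, -1.01, -1.03, -1.15 and -1.20 on SRSF2-labelled arrays. Here too the conditions were fully apart, by 0.80 (SE 0.065, adjusted p = 3.61e-07) or 1.74-fold, and by 0.86, 0.73 and 0.82 within slides. Its call was lost after normexp background correction (0.38, adjusted p = 0.235), where 11.6% of all probes tested were called. Without background subtraction the rise of this probe was 0.72 (adjusted p = 8.42e-07).

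HIF1AN encodes the asparagine hydroxylase FIH, which blocks the coactivator contact of HIF. Its probe A_23_P46964 read -2.67, -2.79, -2.90, -2.85, -2.76 and -2.67 on control arrays 1 to 6, and -2.24, -2.12, -2.17, -2.26, -2.27 and -2.36 on SRSF2-labelled arrays 1 to 6. All SRSF2-labelled arrays were above all control arrays. The rise was 0.54 (SE 0.058, adjusted p = 4.88e-06), 1.45-fold, with within-slide values of 0.55, 0.66 and 0.40. After normexp background correction it was 0.049 (adjusted p = 0.940), where 11.6% of all probes tested were called. Without background subtraction the rise was 0.42 (adjusted p = 3.48e-05).

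EGLN3, a prolyl hydroxylase gene strongly induced by HIF, fell, where EGLN1 rose. Its probe A_23_P360379 read 1.50, 1.44, 1.59, 1.60, 1.67 and 1.66 on control arrays 1 to 6, and 1.25, 1.27, 1.28, 1.32, 1.46 and 1.43 on SRSF2-labelled arrays 1 to 6. Of the SRSF2-labelled arrays, 5 of 6 were below every control array, and array 5 overlapped. The difference was -0.24 (SE 0.057, adjusted p = 0.00288), 1.18-fold, and -0.21, -0.29 and -0.22 within slides. It was -0.036 (adjusted p = 0.924) under spike-in scaling.

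EGLN2, which encodes the remaining prolyl hydroxylase of the family, did not pass the test. Probe A_24_P322395 read 1.13, 1.21, 1.34, 1.29, 1.21 and 1.16 on control arrays, and 1.39, 1.31, 1.51, 1.68, 1.17 and 1.13 on SRSF2-labelled arrays, with arrays 2, 5 and 6 inside the control range. The difference was 0.14 (SE 0.089, 95% interval -0.052 to 0.33, adjusted p = 0.194), and it was 0.18, 0.28 and -0.039 within slides. With the slide as a block the adjusted p was 0.0433, or 0.221 on averages of the 2 arrays, and with the replicate number as a block 0.0962.

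VHL, the substrate adaptor of the ubiquitin ligase, did not pass the test either. Probe A_24_P134942 read -1.87, -1.78, -2.16, -2.09, -2.01 and -1.94 on control arrays 1 to 6, and -1.58, -1.58, -2.01, -2.20, -1.39 and -1.43 on SRSF2-labelled arrays 1 to 6. The SRSF2-labelled arrays of slides 1 and 3 lay above all control arrays, and those of slide 2 did not. The difference was 0.28 (SE 0.14, 95% interval -0.021 to 0.57, adjusted p = 0.103), and 0.24, 0.017 and 0.57 within slides. The difference itself differed between slides for VHL (adjusted p = 0.0378) and for ARNT A_24_P391568 (0.0495), 2 of the 13 probes, where 7.40% of all probes tested did. The VHL difference passed with the replicate number as a block (adjusted p = 0.0351), with the slide as a block (0.0106, but 0.0933 once the 2 arrays of a slide were averaged), without replicate 4 (0.35, 0.0271) and without slide 2 (0.41, 0.00168).

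**Figure D2:**
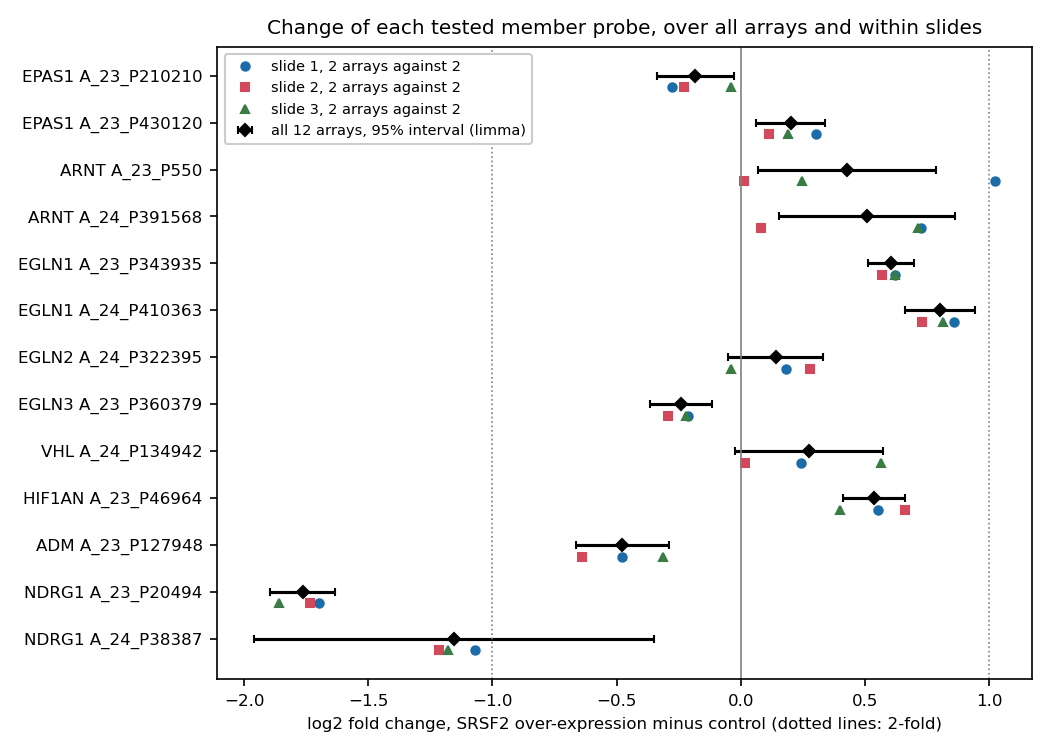
Log2 fold change (SRSF2-labelled minus control) of the 13 tested probes, with the limma estimate over 12 arrays and its 95% interval (diamonds and bars) and the difference of 2 arrays against 2 within each slide (coloured points); dotted lines mark 2-fold. The 3 slides gave -1.86 to -1.70 for NDRG1 A_23_P20494 and -0.64 to -0.31 for ADM, and ARNT and VHL lie near 0 on slide 2.

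The calls of the HIF subunit genes depended on single arrays and on the processing. The 2 probes of EPAS1, the gene of HIF-2 alpha, differed in direction. Probe A_23_P210210 read 3.83, 4.01, 3.90, 3.66, 3.86 and 3.85 on control arrays and 3.65, 3.64, 3.53, 3.57, 3.79 and 3.84 on SRSF2-labelled arrays, with overlapping ranges. It fell by 0.18 (SE 0.071, adjusted p = 0.0430), but it was 0.022 after spike-in scaling and 0.023 after normexp background correction. Its call was lost when replicate 1, 2, 3 or 5 was left out (-0.20 to -0.14, adjusted p 0.0565 to 0.145), and it was -0.28, -0.23 and -0.040 within slides. It was called under 10 of the 24 other settings.

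Probe A_23_P430120 of EPAS1 read -2.14, -2.30, -2.31, -2.28, -2.27 and -2.35 on control arrays, and -1.92, -1.91, -2.21, -2.16, -2.13 and -2.11 on SRSF2-labelled arrays. Of the SRSF2-labelled arrays, 4 of 6 were above all controls. It rose by 0.20 (SE 0.063, adjusted p = 0.0156), with 0.30, 0.11 and 0.19 within slides, and was -0.085 after normexp background correction (adjusted p = 0.874). Without replicate 2 the adjusted p was 0.0522. The sequences of the probes are not used here, so whether they read the same transcripts is not known.

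ARNT, the shared partner of the alpha subunits, had a rise on both probes that rested on slides 1 and 3. Probe A_24_P391568 read -2.45, -2.23, -2.62, -2.52, -2.65 and -2.61 on control arrays, and -1.58, -1.65, -2.35, -2.62, -1.96 and -1.87 on SRSF2-labelled arrays. Array 4 of the SRSF2-labelled condition was at the control level. The difference was 0.51 (SE 0.16, adjusted p = 0.0176), with 0.73, 0.083 and 0.71 within slides. Without replicate 1, 5 or 6 it was 0.44 to 0.47 (adjusted p 0.0561 to 0.0670), without slide 1 or 3 the adjusted p was 0.0650 or 0.202, and after normexp background correction the value was 0.022, no longer called.

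Probe A_23_P550 of ARNT read -3.14, -3.96, -3.14, -3.06, -3.08 and -3.01 on control arrays and -2.51, -2.54, -3.16, -3.02, -2.80 and -2.79 on SRSF2-labelled arrays. Control array 2 stood below all others. The difference was 0.43 (SE 0.17, adjusted p = 0.0416), and 1.02, 0.013 and 0.25 within slides. This probe was called under 9 of the 24 other settings. The call was lost with the replicate number as a block (adjusted p = 0.0744) and without replicate 1, 2, 5 or 6 (0.23 to 0.47, adjusted p 0.0634 to 0.106). It was also lost without slide 1 (0.13, adjusted p = 0.259) or slide 3 (0.52, 0.110) and with the methods' t-test (adjusted p = 0.0666). Median, quantile and spike-in scaling gave adjusted p of 0.0532, 0.0537 and 0.0573 by limma. After normexp background correction the value was -0.044.

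Averaging the 2 arrays of a condition on each slide into 1 replicate left 3 probes up (both of EGLN1, and HIF1AN) and 3 down (ADM and both of NDRG1), and 39.0% of all probes tested were called in that fit. EGLN3 then had an adjusted p of 0.0934, and the probes of EPAS1 and ARNT had 0.110 to 0.205. With the slide as a block on the same averages, 4 rose and 4 fell, EGLN3 (0.0299) and ARNT A_24_P391568 (0.0282) being called as well, where 54.8% of all probes tested were called.

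**Figure D3:**
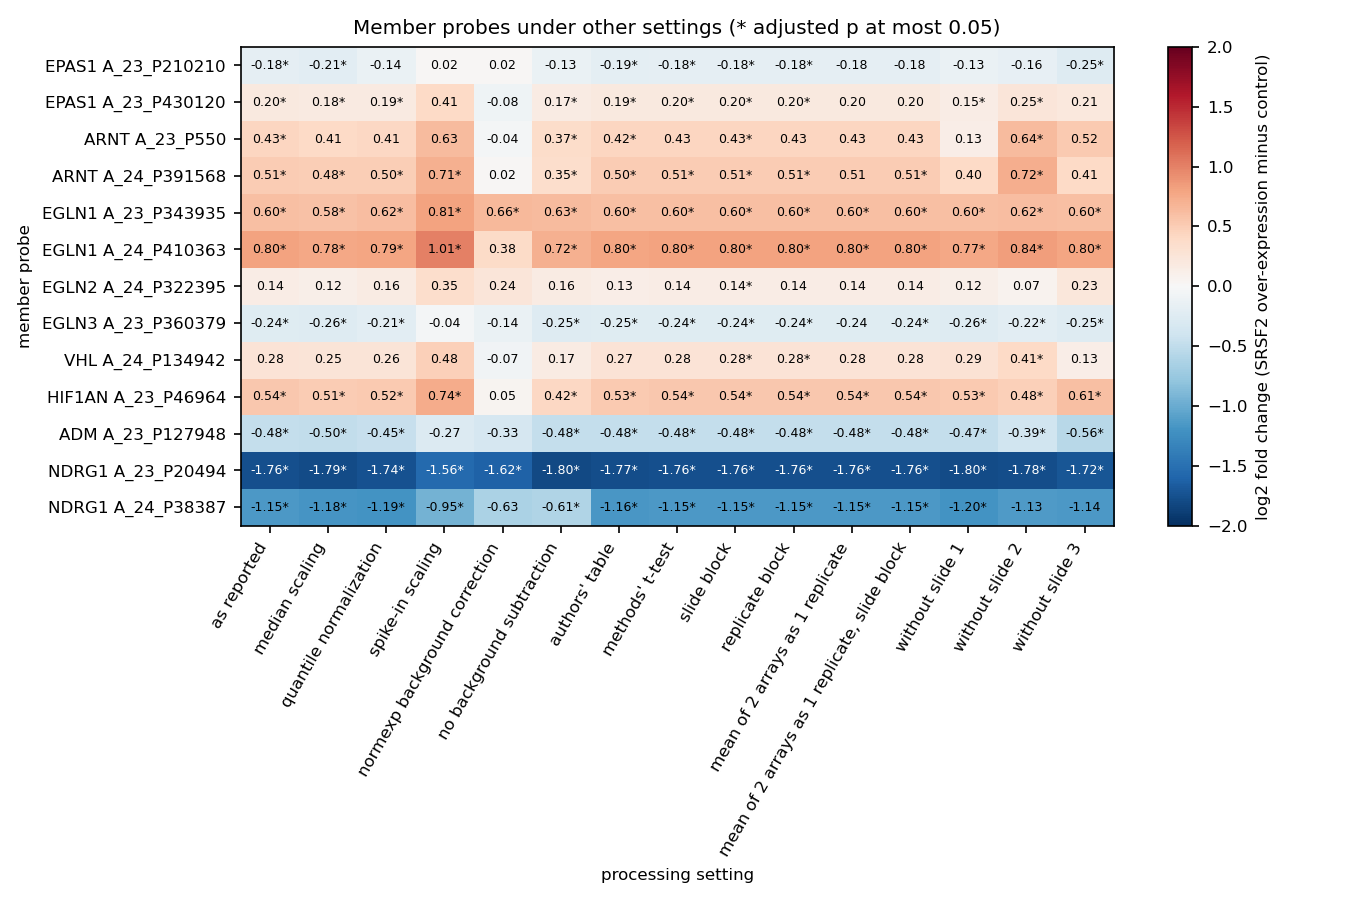
Log2 fold change (colour and printed value, SRSF2-labelled minus control) of the 13 tested probes (rows) as reported and under 14 other processing settings (columns); an asterisk marks an adjusted p of at most 0.05. NDRG1 A_23_P20494 and EGLN1 A_23_P343935 were called in every column, and EPAS1 A_23_P210210 ranged from -0.25 to 0.023.

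The promoter windows of EGLN1, ADM, CA9 and EGLN3 are printed because these known HIF target genes read differently on the arrays: EGLN1 rose, ADM and EGLN3 fell and CA9 was not measurable. HIF binds the core motif ACGTG or GCGTG, and capitals mark a match to either on either strand; ACGTG is also part of the E-box CACGTG. The windows are RefSeq sequences of the 250 bases before the annotated start, 5′ to 3′ on the strand of the gene, in GRCh38.p14: EGLN1 at chr1:231422288-231422537 (minus strand), ADM at chr11:10304823-10305072 (plus), CA9 at chr9:35673678-35673927 (plus) and EGLN3 at chr14:33951075-33951324 (minus).
EGLN1: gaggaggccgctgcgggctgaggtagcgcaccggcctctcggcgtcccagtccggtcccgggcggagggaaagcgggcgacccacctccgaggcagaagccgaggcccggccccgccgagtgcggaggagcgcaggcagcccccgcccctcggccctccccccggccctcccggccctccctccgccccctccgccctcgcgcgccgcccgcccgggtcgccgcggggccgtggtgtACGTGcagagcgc
ADM: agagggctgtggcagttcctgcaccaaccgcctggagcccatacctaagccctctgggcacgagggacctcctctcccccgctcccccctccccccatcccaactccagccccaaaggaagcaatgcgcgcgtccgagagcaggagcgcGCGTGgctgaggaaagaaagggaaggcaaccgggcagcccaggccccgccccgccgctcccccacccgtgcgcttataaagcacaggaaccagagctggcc
CA9: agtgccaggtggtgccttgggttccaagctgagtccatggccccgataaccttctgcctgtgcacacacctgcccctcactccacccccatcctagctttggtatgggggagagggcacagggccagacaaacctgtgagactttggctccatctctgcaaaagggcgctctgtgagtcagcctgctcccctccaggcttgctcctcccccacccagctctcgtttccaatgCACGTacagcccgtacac
EGLN3: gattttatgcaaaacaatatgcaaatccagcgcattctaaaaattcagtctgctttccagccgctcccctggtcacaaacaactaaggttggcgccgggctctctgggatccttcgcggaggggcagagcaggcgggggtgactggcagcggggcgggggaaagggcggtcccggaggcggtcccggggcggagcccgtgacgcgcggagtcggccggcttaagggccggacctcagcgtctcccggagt

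The EGLN1 window held ACGTG from position -13, counted from the start, the ADM window GCGTG from position -101, and the CA9 window ACGTG on the opposite strand from position -18. The EGLN3 window held neither. Of the 8 genes that matched the RefSeq promoter table, EPAS1 (GCGTG) and the first of the EGLN2 windows (CACGTG) also had a match, and ARNT and HIF1AN had none; VHL and NDRG1 were not matched. A match is common, since 43.2% of the 35116 windows of this length held one or the other (18.5% ACGTG, 32.2% GCGTG, 6.34% CACGTG), and genes with a match were among those that rose, fell and did not pass.

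The rest of the HIF machinery was read from 18 probes of 12 genes (P4HTM had none), of which 16 were tested. At an adjusted p of at most 0.05, 3 probes rose and 2 fell, 5 of 16 called in all where 57.7% of all probes were. CREBBP, a HIF coactivator, rose by 0.60 (SE 0.055, adjusted p = 1.10e-06) on probe A_23_P163850. Its other 2 probes, A_24_P322025 (-0.19) and A_24_P342279 (0.071), did not pass. With the replicate number as a block A_24_P322025 was called as a fall (adjusted p = 0.0402), so CREBBP then had calls in both directions. The ubiquitin ligase genes SIAH1 and SIAH2, whose products act on prolyl hydroxylases, rose by 0.59 (SE 0.093, adjusted p = 0.000128) and 0.55 (SE 0.081, adjusted p = 7.88e-05). ARNT2, a relative of ARNT, fell by 0.72 (SE 0.080, adjusted p = 6.48e-06). It was well above background on 5 of 6 control and 4 of 6 SRSF2-labelled arrays, so it passed the filter only through the control arrays, where it was higher. ELOB, a subunit of the VHL ligase, fell by 0.51 (SE 0.090, adjusted p = 0.000329) on probe A_23_P100392, and its other probe read 0.054. HIF1A, the gene of HIF-1 alpha, read 0.0072 (SE 0.099, adjusted p = 0.956) on its single probe A_24_P56388. The median over the 16 probes was 0.061. With the replicate number as a block 5 rose and 3 fell, where 65.8% of all probes tested were called. Under spike-in scaling 4 rose and 0 fell by limma (1 at an unadjusted p under 0.05), where 26.7% of all probes tested were called.

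Other HIF target genes were read from 66 probes of 44 genes (KDM4B had none), of which 54 probes of 35 genes were tested. They went in both directions: 17 probes rose and 21 fell, 38 of 54 called in all where 57.7% of all probes were, with a median of -0.13. Among the falls, PFKFB3 A_24_P206604 passed the filter only through the control arrays (well above background on 5 of 6, and on 4 of 6 SRSF2-labelled). Under spike-in scaling 12 rose and 3 fell. Counted by gene, 10 had only rises, 16 only falls, 2 both (INSIG2 and STC2) and 7 no call. On at least 1 probe, 12 of the 35 genes rose and 18 fell, where 4198 of the 11592 named genes tested rose and 3910 fell. With the replicate number as a block, the same tally was 9, 18, 4 (VEGFA and PGK1 as well) and 4, in a fit that called 65.8% of all probes tested. The largest falls by probe were those of HK2, PFKFB4 and PDK1. The hexokinase gene HK2 fell by 1.97 (SE 0.22, adjusted p = 6.67e-06) on probe A_23_P398460 and by 0.92 (SE 0.099, adjusted p = 5.29e-06) on A_32_P175739. PFKFB4, an enzyme that controls the rate of glycolysis, fell by 1.12 (SE 0.078, adjusted p = 9.53e-08). PDK1, the kinase that inhibits pyruvate dehydrogenase, fell by 0.75 (SE 0.059, adjusted p = 2.92e-07) on A_23_P10614.

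The angiogenic growth factor gene VEGFA and the histone demethylase gene KDM3A had the largest rises of that list. VEGFA rose by 1.05 (SE 0.11, adjusted p = 3.12e-06) on A_24_P179400 and by 0.84 (SE 0.052, adjusted p = 3.80e-08) on A_23_P81805; probe A_23_P70398 rose by 0.54, and A_24_P12401 read -0.20 (adjusted p = 0.149, or 0.0103 with the replicate number as a block). All 3 KDM3A probes rose, by 0.74 to 0.79.

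**Figure D4:**
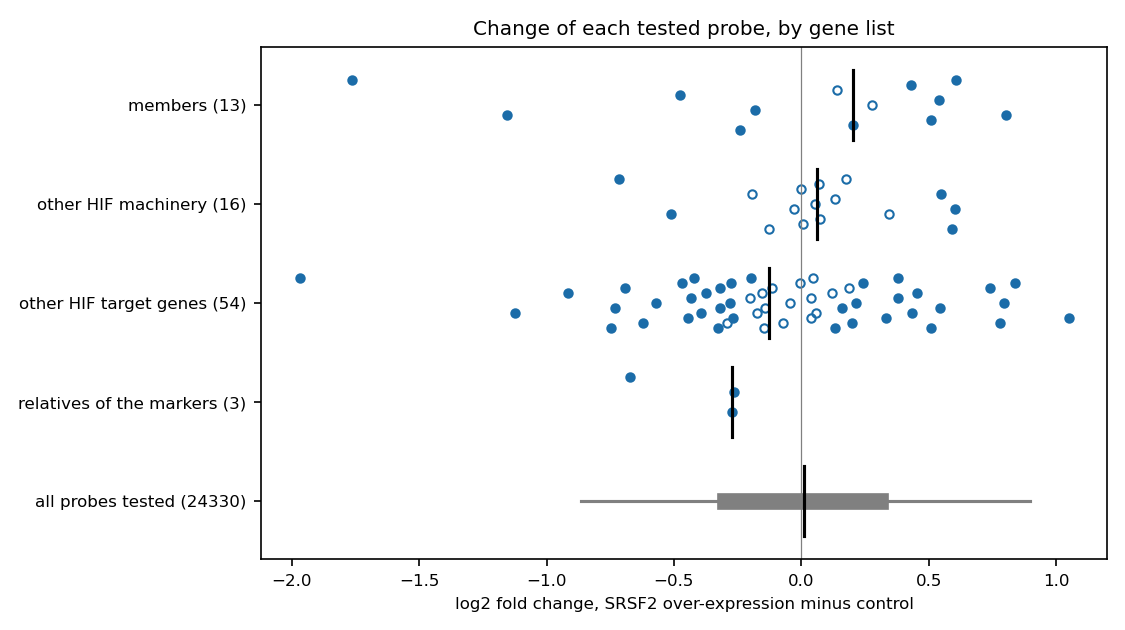
Log2 fold change (SRSF2-labelled minus control) of every tested probe in 4 gene lists, with the number of probes in brackets; filled points have an adjusted p of at most 0.05, black lines are medians, and the grey bars give the 25th to 75th and 5th to 95th percentiles of all 24330 probes. The first 3 lists spread to both sides of 0 and the tested relatives lay below it, with NDRG1 at -1.76 and HK2 at -1.97 farthest to the left.

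Relatives of the markers were mostly not measurable. Of 11 probes of 10 genes (ADM2 had none), 8 were well above background on no array: those of NDRG2, CA2, CA4, CA8, CALCRL, RAMP2 and RAMP3. The 3 tested probes all fell (0 rose by limma and by the methods' t-test, also at an unadjusted p under 0.05), where 28.0% of all probes tested fell: RAMP1, a partner protein of calcitonin-family receptors, by 0.67 (SE 0.062, adjusted p = 1.26e-06), NDRG4 by 0.27 (SE 0.064, adjusted p = 0.00273) and NDRG3 by 0.26 (SE 0.049, adjusted p = 0.000512). Under spike-in scaling the NDRG4 and NDRG3 probes read -0.067 and -0.059 (adjusted p = 0.854 and 0.867). CALCRL encodes the adrenomedullin receptor, which works with RAMP2 or RAMP3.

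The probes of other genes that followed NDRG1 most closely over the 12 arrays, as a description, were those of PRKX (r = 0.999, difference -1.27), PRMT7 (r = 0.998, -1.44) and ASB1 (r = 0.998, -0.77) for A_23_P20494. For A_24_P38387 they were PAPSS2 (r = 0.969, -0.66), ARRDC1 (r = 0.933, -0.42) and ARHGEF12 (r = 0.895, -0.19). The arrays share the difference between conditions, and for the dim probe the high reading of array 2.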

How the data were processed

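RNA of 12 samples was measured on one-colour 44 k arrays. The authors deposited scanner files from Feature Extraction 10.7.3.1, where the processed intensity of a spot is its background-subtracted signal, and a table of log2 values. Per the labels, samples were grouped as control or SRSF2 over-expression. The deposited log2 values correlated at 0.999 or more per array with the values computed here after centring on each probe's median; this table served as an alternative.

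From the processed intensity, log2 values of non-outlier gene spots were averaged per probe, and the 75th percentile of the array was subtracted. A probe was kept if either condition had it well above background on 5 or more of its 6 arrays and no more than 25% of arrays lacked a value (24330 of 41000). Conditions were compared without covariates in limma 3.58.1 (R 4.3.3; lmFit, eBayes, Benjamini-Hochberg over all probes kept), tested first on simulated data. Summaries used Python 3.11.15. RefSeq accessions named 23958 of 25868 probes. Probe levels of different probes were not compared, and array number limits the precision.

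Alternatives were median, quantile and spike-in scaling (7 control probes), normexp (offset 50) or no background subtraction, the deposited table, other filters on dim probes, outlier spots kept, a block for the slide or for the replicate number, the methods' t-test, 2 arrays averaged, and arrays or slides left out. Same-numbered arrays deviated together from their condition means (6 pairs, r 0.28 to 0.64), no more closely than differently numbered arrays of a slide (0.33 to 0.65). Arrays of other slides did not (-0.48 to -0.05). Deviations cancel within a condition, so negative values between slides follow from positive values within them. The arrays of a slide thus deviated together, and the check does not show a pairing by replicate number beyond the slide. The main fit did not use this pairing by slide, and the slide was a block only in alternative fits. With the slide as a block, limma called 70.1% of all probes tested, EGLN2 (adjusted p = 0.0433) and VHL (0.0106) among them. The text names all probes of the 10 genes, up to 4 rises and 4 falls of each list, and the 3 probes most like each NDRG1 probe; INSIG2, STC2, PGK1, HIF1A, the cell type markers and further probes of named genes were added after their values were seen. The members and lists were chosen with earlier results of these data known.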

Additional observations from a re-analysis of the deposited data

Results flagged for a closer look

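Readings far from the rest of their group were found in 3 of the 28 groups of 6 arrays examined, where chance gives about 1 in 20. On ARNT A_23_P550, control array 2 read -3.96, with the other 5 control arrays between -3.14 and -3.01. Without that array the rise was 0.28. On NDRG1 A_24_P38387, array 2 was high in both conditions, at -2.10 among the control arrays and at -3.09 among the SRSF2-labelled arrays; PAPSS2, ARRDC1 and ARHGEF12 followed this probe most closely. The cause was not tested.

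The difference between conditions itself differed between the 3 slides for ARNT A_24_P391568 (adjusted p = 0.0495) and for VHL A_24_P134942 (adjusted p = 0.0378), by a slide-by-condition term in limma that was chosen after the data were seen and that called 7.40% of all probes tested. For both, slide 2 had the smallest difference, 0.083 for ARNT and 0.017 for VHL.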

How the results depend on the processing

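Of the 24 alternatives, normexp background correction changed most. It left 1 of the 10 genes' probes up, 1 down and 1 down by at least 2-fold, 1 up and 1 down in the other HIF machinery, 4 up and 4 down in the other HIF targets and 1 relative down, and it called 11.6% of all probes. It reversed ARNT A_23_P550 (-0.044), EPAS1 A_23_P210210 (0.023), EPAS1 A_23_P430120 (-0.085) and VHL (-0.069). Spike-in scaling, which shifted the median by 0.20, reversed EPAS1 A_23_P210210 (0.022) and gave 2 of the genes' probes down, 1 down and 1 up (EGLN1 A_24_P410363) by at least 2-fold, 3 other targets down, and 0 machinery probes and 0 relatives down by limma (1 of each at an unadjusted p under 0.05). Averaging 2 arrays gave 3 up and 3 down, and 8 other targets up. Without slide 2, 3 fell and 1 fell by at least 2-fold, where 58.2% of all probes tested were called. Without slide 3, 3 rose and 1 fell by at least 2-fold, where 48.3% were called. No background subtraction left 1 fall of at least 2-fold.

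The replicate block, like the slide block, gave 5 machinery probes up, where these fits called 65.8% and 70.1% of all probes tested. Among the 13 probes the replicate block turned the calls of ARNT A_23_P550 (adjusted p = 0.0744, lost) and VHL (0.0351, gained), and no other.

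With single replicates left out, 4 to 7 of the genes' probes rose and 4 to 5 fell, where 52.0% to 58.2% of all probes tested were called. At 2-fold or more, 0 rose and 1 to 2 fell. Among the lists, 3 to 4 machinery probes rose and 2 fell, 15 to 16 other targets rose and 18 to 23 fell, and 3 relatives fell and 0 rose. The 1 fall of at least 2-fold came without control array 2. Causes were not tested. Probes near background were limited by signal over background: CA9 gave none, and NDRG1 A_24_P38387 was well above background on 3 of 6 SRSF2-labelled arrays.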
